A study of Mus musculus with 16 samples.

Results

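Potassium channel genes outside the Kv4 complex were followed in the striatum of 4 genotypes of mice. The members were all probe sets whose platform annotation gave exactly 1 gene symbol beginning with Kcn, leaving out Kcnip1 to Kcnip4, Kcnd1 to Kcnd3, Kcne2 and Kcnj10. They comprised 142 probe sets of 75 genes, of 18193 genes with such a probe set on the array. Each gene was represented by its brightest probe set (highest mean of the 16 arrays). Of the 75 genes, 57 had a mean above the brightness filter (the 40th percentile of probe-set means, 5.94 on the log2 scale) and were tested. The other 18 (Kcne1, Kcne3, Kcng4, Kcnh5, Kcnh7, Kcnh8, Kcnj1, Kcnj2, Kcnj5, Kcnj14, Kcnj15, Kcnk4, Kcnk5, Kcnk15, Kcnmb1, Kcnmb4os1, Kcnq1 and Kcnv2) had means from 3.91 to 5.92. Of the members, 3 are noncoding (Kcnq1ot1, Kcnmb4os1 and Kcnmb4os2), and the rest encode channel pores or their auxiliary subunits.

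Potassium channels let potassium leave or enter the cell and so set the resting potential, the length of the action potential and the pattern of firing. Voltage-gated channels open on depolarization, inward rectifiers hold the membrane near rest, tandem-pore channels carry leak currents, and a further family opens on internal calcium or sodium. The medium spiny neurons that make up most of the striatum rest at a very negative potential, held there by inward rectifiers, and slowly inactivating voltage-gated currents delay their first spike.

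All mice were of the B6xCBA strain. The wild-type group carried neither allele. R6/2 mice, a Huntington's disease model, carry a transgene of the human huntingtin promoter and exon 1 with a long CAG repeat. DREAM+/- mice are heterozygous for the knockout of DREAM, a calcium-binding transcriptional repressor and Kv4 partner encoded by Kcnip3, and so keep 1 intact copy in every cell. R6/2 x DREAM+/- mice, from a cross of both lines, carry the transgene and 1 copy of DREAM. Each genotype had 4 arrays, described as biological replicates. The sources used here give neither age nor sex, nor whether animals were pooled. The labels name striatal neurons as the cell type, whereas the RNA came from whole striatum, so glial, vascular and neighbouring cells were measured too. The values are RMA log2 probe-set levels on Affymetrix whole-genome mouse arrays, and levels of different probe sets cannot be ranked against each other.

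Kcnip3 read between 7.43 and 7.82 on the 8 arrays of DREAM+/- genotypes and between 9.04 and 9.89 on the other 8, and DREAM+/- stood at 26.9% of the wild-type level and R6/2 x DREAM+/- at 34.1% of R6/2. All 16 medium spiny neuron markers on the array were bright enough to be tested. Replicates correlated between 0.990 and 0.998. Replicate 1 of R6/2 stood apart in Xist (6.49, against 11.04 or more on the other 15 arrays), and replicate 3 of R6/2 x DREAM+/- stood apart on the third principal component. In that array the beta-actin 3' probe set exceeded the 5' one by 1.10 on the log2 scale, beside 0.50 to 0.54 in the rest of its group, 1.03 in wild-type replicate 4 and 0.44 to 0.76 on the other 11 arrays, and for Gapdh the same difference was -0.02, beside -0.19 to -0.09 on the other 15 arrays. The part of these measures in the results was not tested, other than by leaving the array out and by a fit with the actin difference as a covariate. Results are therefore given with and without these arrays where they rest on them.

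Many potassium channel genes were lower in R6/2 striatum. Against wild type, 22 of the 57 tested members were lower, 1 (Kcnk7) was higher and 34 did not pass (limma, Benjamini-Hochberg adjusted p below 0.05 over 13011 genes). The lower members were 38.6% of those tested, and of all 13011 genes 11.9% were lower, 13.5% higher and 25.4% differed in either direction. On the DREAM+/- background, R6/2 x DREAM+/- against DREAM+/-, 15 members were lower (26.3%), none was higher and 42 did not pass, beside 7.87% of all genes lower, 7.07% higher and 14.9% in either direction. In either direction, 21 members there had an unadjusted p below 0.05, the 15 lower members among them, beside 3670 of the 13011 genes. Differences are given on the log2 scale, first genotype minus second. The median difference of the tested members was -0.16 in the first comparison and -0.10 in the second, beside 0.03 and 0.02 for all genes. In bulk tissue, fewer cells of a type and less RNA per cell cannot be told apart.

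The R6/2 comparisons share no arrays. The fit nevertheless took the spread of each gene from all 16 arrays, so a gene had the same SE in both comparisons. The calls in these comparisons were therefore not independent of each other. Of the members, 14 were lower in both, which is 63.6% of the 22 and 93.3% of the 15, and 6.55% of all genes were lower in both. The sign was the same in both for 42 of the 57 members. In 23 members the 4 R6/2 arrays did not overlap the 4 wild-type arrays, all of them lower, and such separation was present in 25.2% of all genes. On the DREAM+/- background 13 members separated in this way, all lower, beside 18.9% of all genes. Among 31 members with a mean of at least 8, 18 were lower in R6/2 against wild type (58.1%, beside 14.4% of 8046 genes that bright) and 13 on the DREAM+/- background (41.9%, beside 9.66%). Among the 26 tested members under 8, 4 (15.4%) and 2 (7.69%) were lower, beside 11.9% and 7.87% of all tested genes of any brightness. The share among all genes that dim was not worked out. Without both arrays that stand apart, the called members numbered 22 (20 of the 23 among them) and 18 (all 15 among them), beside 25.2% and 17.4% of all genes.

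**Figure D1:**
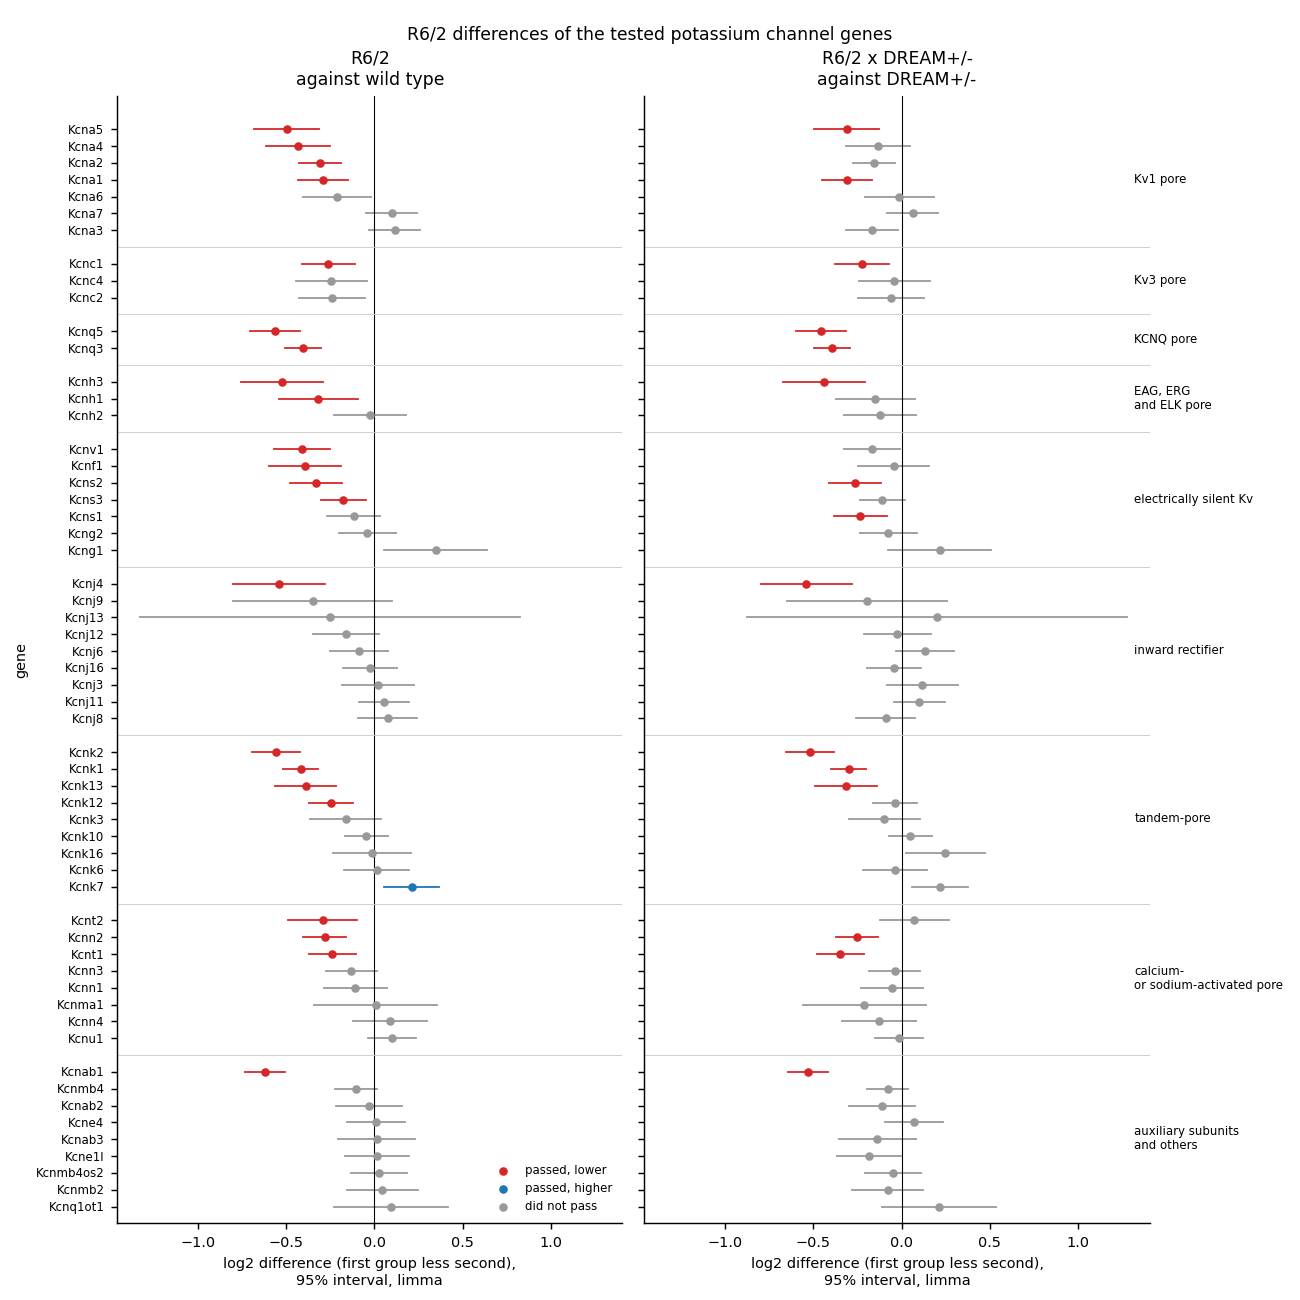
Log2 difference with its 95% interval (x axis) for each of the 57 tested genes (y axis, grouped by family), in R6/2 against wild type (left) and R6/2 x DREAM+/- against DREAM+/- (right). Points left of 0 are lower levels with the transgene, and red points are the 22 and 15 members that passed as lower; both KCNQ pores and Kcnab1 lie to the left in both panels.

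The voltage-gated Kv1 family and its auxiliary subunits held the member with the smallest p. Kcnab1 encodes a beta subunit that gives Kv1 channels rapid inactivation. Kcnab1 read 12.71, 12.58, 12.64 and 12.63 in the wild-type arrays and 12.11, 12.03, 11.92 and 12.03 in the R6/2 arrays. The DREAM+/- arrays read 12.60, 12.63, 12.57 and 12.52, and the R6/2 x DREAM+/- arrays 12.03, 12.14, 12.08 and 11.95. Arrays with the transgene reached 12.14 at most, below the 12.52 of the lowest array without it. The log2 difference was -0.62 (SE 0.0537, adjusted p = 4.77e-07) in R6/2 against wild type, which is 65.2% of the wild-type level. It was -0.53 (SE 0.0537, adjusted p = 5.41e-06) on the DREAM+/- background. A second Kcnab1 probe set gave -0.74 and -0.87 and passed in both. The other beta subunits, Kcnab2 and Kcnab3, gave -0.03 and 0.01 against wild type and did not pass.

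Of the 7 Kv1 pore genes, all tested, 4 were lower in R6/2 against wild type and 2 on the DREAM+/- background. Kcna1, a pore subunit of axons and terminals, was among both. Wild-type arrays read 11.78, 11.88, 11.79 and 11.83 for Kcna1, and R6/2 arrays 11.67, 11.53, 11.42 and 11.50. With 1 copy of DREAM the levels were 11.80, 11.79, 11.86 and 11.72 without the transgene and 11.48, 11.50, 11.65 and 11.30 with it. The groups did not overlap on either background. The differences were -0.29 (SE 0.0674, adjusted p = 0.00437) and -0.31 (SE 0.0674, adjusted p = 0.00457). Of its other 3 probe sets, none passed as lower in either comparison.

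Kcna5, a delayed-rectifier pore subunit, was lower in both as well. Levels of Kcna5 were 9.29, 9.37, 9.32 and 9.34 in wild type and 9.14, 8.80, 8.61 and 8.78 in R6/2. In DREAM+/- they were 9.09, 9.28, 9.21 and 9.21, and in R6/2 x DREAM+/- 8.73, 8.98, 8.98 and 8.85. Replicate 1 of R6/2 was the highest of its group and still below all wild-type arrays. The differences were -0.50 (SE 0.0868, adjusted p = 4.72e-04) and -0.31 (SE 0.0868, adjusted p = 0.0211), and the second lost its call without DREAM+/- replicate 2 or 3, without R6/2 x DREAM+/- replicate 1 or 4, and with the Y-linked Eif2s3y as a covariate. Kcna2 and Kcna4, the latter a rapidly inactivating pore subunit, were lower in R6/2 against wild type, with differences of -0.31 (SE 0.0566, adjusted p = 7.54e-04) and -0.43 (SE 0.0863, adjusted p = 0.00139). On the DREAM+/- background they gave -0.16 and -0.13 and did not pass. Of 4 Kcna2 probe sets (-0.31 to 0.035) and 2 of Kcna4 (-0.43 to -0.275), 1 each passed as lower against wild type. Kcna6 (-0.21), Kcna7 (0.10) and Kcna3 (0.12) did not pass against wild type.

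Both tested KCNQ genes were lower in both comparisons. They encode pores of the M-current, a slow potassium current that restrains repetitive firing and is closed by muscarinic receptors. In wild type Kcnq3 stood at 10.90, 10.92, 10.87 and 10.97, and in R6/2 at 10.53, 10.52, 10.45 and 10.55. Its DREAM+/- levels were 11.02, 10.93, 10.88 and 10.90, against 10.51, 10.48, 10.63 and 10.53 in R6/2 x DREAM+/-. All 8 transgene arrays lay between 10.45 and 10.63, below the lowest array without it at 10.87. The Kcnq3 differences were -0.40 (SE 0.0487, adjusted p = 1.56e-05) and -0.40 (SE 0.0487, adjusted p = 3.88e-05), or 75.7% and 76% of the control level.

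Kcnq5 read 9.80, 9.67, 9.75 and 9.44 in the wild-type arrays and 9.12, 9.13, 9.08 and 9.08 in the R6/2 arrays. The DREAM+/- arrays read 9.71, 9.71, 9.66 and 9.73, and the R6/2 x DREAM+/- arrays 9.18, 9.35, 9.31 and 9.14. Here too the transgene arrays lay below all others, between 9.08 and 9.35. Kcnq5 differed by -0.56 (SE 0.0676, adjusted p = 1.52e-05) and -0.46 (SE 0.0676, adjusted p = 1.90e-04). A further probe set of Kcnq3 gave -0.79 and -0.54, and a further probe set of Kcnq5 gave -0.58 and -0.44, each passing in both comparisons, while the third Kcnq5 probe set did not pass in either. Kcnq1, a cardiac and epithelial pore, was under the brightness filter, with means of 5.81 in wild type and 5.99 in R6/2.

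Among tandem-pore genes, 4 of 9 tested were lower and 1 was higher in R6/2 against wild type, and 3 were lower on the DREAM+/- background. Kcnk2 encodes TREK-1, a leak channel opened by membrane stretch, lipids and warmth. Wild-type arrays read 11.17, 11.26, 11.16 and 11.32 for Kcnk2, and R6/2 arrays 10.71, 10.71, 10.69 and 10.56. With 1 copy of DREAM the levels were 11.29, 11.36, 11.34 and 11.16 without the transgene and 10.77, 10.82, 10.88 and 10.61 with it. The transgene arrays reached 10.88 at most, below the 11.16 of the lowest array without it. The differences were -0.56 (SE 0.0646, adjusted p = 9.61e-06) and -0.52 (SE 0.0646, adjusted p = 4.30e-05).

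Kcnk1 encodes TWIK-1, a leak channel of neurons and astrocytes. Levels of Kcnk1 were 11.73, 11.56, 11.60 and 11.52 in wild type and 11.21, 11.19, 11.14 and 11.20 in R6/2. In DREAM+/- they were 11.64, 11.63, 11.65 and 11.57, and in R6/2 x DREAM+/- 11.31, 11.33, 11.33 and 11.32. The spread within the transgene groups was small, and the R6/2 arrays lay below the R6/2 x DREAM+/- arrays. Kcnk1 differed by -0.42 (SE 0.0477, adjusted p = 8.52e-06) and -0.30 (SE 0.0477, adjusted p = 3.67e-04), and its second probe set passed in both at -0.46 and -0.36.

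Kcnk13 encodes THIK-1, a leak channel that microglia also carry. In wild type Kcnk13 stood at 7.69, 7.44, 7.62 and 7.70, and in R6/2 at 7.13, 7.20, 7.29 and 7.27. Its DREAM+/- levels were 7.34, 7.58, 7.46 and 7.27, against 7.10, 7.09, 7.29 and 6.90 in R6/2 x DREAM+/-. R6/2 lay below wild type without overlap, whereas replicate 3 of R6/2 x DREAM+/- overlapped the DREAM+/- arrays. The differences were -0.39 (SE 0.083, adjusted p = 0.00234) and -0.32 (SE 0.083, adjusted p = 0.0148). A second, dimmer Kcnk13 probe set gave -0.03 and 0.05 and did not pass as lower in either. The related Kcnk12 passed as lower against wild type (-0.25, SE 0.0594, adjusted p = 0.00538), with -0.04 on the DREAM+/- background. Kcnk7, a family member not known to carry current, was 0.21 higher in R6/2 (adjusted p by limma = 0.0448). Its call was lost under 19 of the 28 other settings in which it was tested, and its groups overlapped. The acid-sensitive Kcnk3 gave -0.16 and -0.10 and did not pass. The remaining tested tandem-pore genes gave 0.01 (Kcnk6), -0.04 (Kcnk10, which encodes TREK-2) and -0.01 (Kcnk16) against wild type.

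The start sites of 56 members are among the RefSeq promoter sequences of GRCm38.p6, and the 250 bases upstream were searched on both strands for 4 binding motifs of factors known to respond to activity or calcium. These 56 genes have 75 listed start regions. The EGR motif GCGNGGGCG was in 2 of the 75 (2.67%), 1 of Kcnk2 and 1 of Kcnt2, and in 4.7% of all 32851. These sequences are shown because they hold the EGR motif, whatever the call of the gene. Both genes were lower in R6/2 against wild type, as were 15 of the 56 genes searched, although the Kcnt2 call was lost under 7 of 29 other settings. The motif is in capitals; for Kcnk2 it was in 1 of 4 listed start regions. The Kcnk2 window is chr1:189343354-189343603 on the minus strand and the Kcnt2 window chr1:140245468-140245717 on the plus strand. A match is a stretch of letters and no evidence of binding.
Kcnk2: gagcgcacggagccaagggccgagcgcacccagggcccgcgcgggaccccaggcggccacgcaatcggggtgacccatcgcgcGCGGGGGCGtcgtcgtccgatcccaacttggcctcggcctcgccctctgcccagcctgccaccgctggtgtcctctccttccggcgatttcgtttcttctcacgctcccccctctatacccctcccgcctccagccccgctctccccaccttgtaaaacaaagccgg
Kcnt2: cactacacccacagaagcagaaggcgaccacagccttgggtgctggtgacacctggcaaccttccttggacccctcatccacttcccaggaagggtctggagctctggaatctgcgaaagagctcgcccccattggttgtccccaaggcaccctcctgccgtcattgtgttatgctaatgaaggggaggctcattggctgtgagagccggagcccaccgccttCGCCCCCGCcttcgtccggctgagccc

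The cyclic AMP response element TGACGTCA was in 0 of the 75 start regions and in 1.55% of all. The AP-1 motif TGANTCA was in 2 of the 75 (2.67%), of Kcne3 and Kcnk2, and in 6.75% of all. The letters GTCA, the core of the element that DREAM binds, were in 60 of the 75, which is 80%, and in 80.2% of all, and the cyclic AMP element holds these letters too.

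Of 14 inward rectifier genes 9 were tested, and 1 was lower in each R6/2 comparison. This was Kcnj4, which encodes Kir2.3, a strong rectifier of medium spiny neurons. Kcnj4 read 9.56, 9.92, 9.74 and 10.05 in the wild-type arrays and 9.18, 9.14, 9.26 and 9.53 in the R6/2 arrays. The DREAM+/- arrays read 9.70, 9.86, 9.81 and 9.65, and the R6/2 x DREAM+/- arrays 8.95, 9.29, 9.56 and 9.06. Each transgenic group lay below its own control group, although replicate 3 of R6/2 x DREAM+/- was level with wild-type replicate 1, both at 9.56, and replicate 4 of R6/2 reached 9.53. Kcnj4 differed by -0.54 (SE 0.123, adjusted p = 0.00384) and -0.54 (SE 0.123, adjusted p = 0.00627), 68.8% of the control level in each. Kcnj2, its close relative Kir2.1, read 4.66 to 5.34 over all arrays, under the filter, and was not tested.

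The subunits of G-protein-gated channels, through which dopamine, opioid and other receptors hyperpolarize cells, did not pass in the R6/2 comparisons. Kcnj3 gave 0.02 against wild type (95% interval -0.18 to 0.22), Kcnj6 -0.09 (-0.25 to 0.08) and Kcnj9 -0.35 (-0.80 to 0.10). The pores of ATP-sensitive channels, Kcnj11 and Kcnj8, gave 0.06 and 0.07 and did not pass either. Neither did the strong rectifier Kcnj12 (-0.16) nor the glial and epithelial Kcnj16 (-0.03).

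Kcnc1, the Kv3 pore of fast-spiking cells, was lower in both comparisons. Wild-type arrays read 10.46, 10.38, 10.25 and 10.17 for Kcnc1, and R6/2 arrays 10.03, 9.99, 10.06 and 10.14. With 1 copy of DREAM the levels were 10.47, 10.32, 10.27 and 10.44 without the transgene and 10.09, 10.08, 10.33 and 10.10 with it. R6/2 did not overlap wild type, but replicate 3 of R6/2 x DREAM+/- (10.33) lay among the DREAM+/- arrays. The differences were -0.26 (SE 0.0722, adjusted p = 0.0137) and -0.23 (SE 0.0722, adjusted p = 0.044), and the second call was lost under 15 of 29 other settings. Over the 4 Kcnc1 probe sets the differences ran from -0.26 to 0.075 against wild type, and 1 passed as lower. On the DREAM+/- background they ran from -0.225 to 0.185, and the brightest did not pass in the fit over all probe sets. Kcnc2 and Kcnc4 gave -0.24 and -0.24 against wild type and did not pass.

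Kcnh3, a pore of the ELK group found mainly in forebrain neurons, was lower in both. Levels of Kcnh3 were 9.38, 9.67, 9.32 and 9.74 in wild type and 9.04, 9.07, 8.92 and 8.98 in R6/2. In DREAM+/- they were 9.20, 9.34, 9.28 and 9.20, and in R6/2 x DREAM+/- 8.63, 8.70, 9.21 and 8.71. Wild type and R6/2 were apart, and replicate 3 of R6/2 x DREAM+/- (9.21) fell within the DREAM+/- range. Kcnh3 differed by -0.53 (SE 0.11, adjusted p = 0.00213) and -0.44 (SE 0.11, adjusted p = 0.0113). Over its 4 probe sets the differences ran from -0.525 to -0.0225 against wild type, and 2 passed as lower. On the DREAM+/- background they ran from -0.4425 to 0.07, and 1 passed. Kcnh1, an EAG pore, was lower against wild type (-0.32, SE 0.107, adjusted p = 0.0369), a call lost under 7 of 29 other settings. Its brightest probe set did not pass in the fit over all probe sets. Kcnh2, the ERG pore, gave -0.03.

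The electrically silent subunits carry no current alone and modify Kv2 channels when they join them. Of 7 tested, 4 were lower against wild type and 2 on the DREAM+/- background. In wild type Kcns2 stood at 9.45, 9.33, 9.37 and 9.17, and in R6/2 at 9.10, 8.93, 9.06 and 8.91. Its DREAM+/- levels were 9.31, 9.40, 9.41 and 9.39, against 9.04, 9.12, 9.29 and 9.00 in R6/2 x DREAM+/-. The groups were apart on both backgrounds. Kcns2 differed by -0.33 (SE 0.0703, adjusted p = 0.00235) and -0.27 (SE 0.0703, adjusted p = 0.016), and its second probe set passed in both.

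Kcnv1 and Kcnf1 were lower against wild type, with differences of -0.41 (SE 0.0751, adjusted p = 7.16e-04) and -0.39 (SE 0.0959, adjusted p = 0.0061), and gave -0.17 and -0.04 on the DREAM+/- background. All 3 Kcnv1 probe sets passed as lower against wild type, whereas the second of Kcnf1 gave -0.005 there. Kcns3 passed narrowly (-0.17, SE 0.0612, adjusted p = 0.0446) and lost its call under 19 of 28 other settings. Kcns1 passed on the DREAM+/- background (-0.23, SE 0.0711, adjusted p = 0.0332), a call lost under 7 of 28 other settings. Its difference against wild type, -0.12, did not. Kcng1 (0.35) did not pass.

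Of 8 calcium- or sodium-activated pores, 3 were lower against wild type and 2 on the DREAM+/- background. Kcnn2 encodes SK2, which opens on calcium after a spike. Kcnn2 read 8.36, 8.42, 8.36 and 8.35 in the wild-type arrays and 8.10, 8.20, 8.01 and 8.05 in the R6/2 arrays. The DREAM+/- arrays read 8.37, 8.32, 8.33 and 8.22, and the R6/2 x DREAM+/- arrays 7.94, 8.09, 8.17 and 8.02. All transgene arrays lay at or below 8.20 and all others at or above 8.22. The differences were -0.28 (SE 0.0567, adjusted p = 0.00153) and -0.26 (SE 0.0567, adjusted p = 0.00531).

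Kcnt1 encodes Slack, a sodium-activated channel. Wild-type arrays read 9.64, 9.71, 9.49 and 9.77 for Kcnt1, and R6/2 arrays 9.38, 9.46, 9.40 and 9.42. With 1 copy of DREAM the levels were 9.60, 9.62, 9.64 and 9.56 without the transgene and 9.14, 9.26, 9.41 and 9.22 with it. The transgene arrays reached 9.46 at most and the others 9.49 at least. Kcnt1 differed by -0.24 (SE 0.0627, adjusted p = 0.0101) and -0.35 (SE 0.0627, adjusted p = 0.0011). All 3 Kcnt1 probe sets were below 0 in both comparisons, and 2 and 1 of them passed as lower. Its partner Slick, Kcnt2, was lower against wild type (-0.29, SE 0.0929, adjusted p = 0.0283), a call lost under 7 of 29 other settings, among them leaving out R6/2 replicate 1 and R6/2 x DREAM+/- replicate 3 together. Kcnt2 gave 0.07 on the DREAM+/- background. Kcnma1, the large-conductance BK pore, gave 0.01 and -0.21, and Kcnmb4, its neuronal beta subunit, -0.10 and -0.08. None of these passed. Over 5 Kcnma1 probe sets the differences ran from -0.655 to 0.01 against wild type and from -0.21 to 0.43 on the DREAM+/- background. The other SK and related pores gave -0.11 (Kcnn1), -0.13 (Kcnn3, abundant in dopamine neurons) and 0.09 (Kcnn4), and Kcnu1 gave 0.10, against wild type.

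The last group holds auxiliary subunits and noncoding members. Of 13 in it 9 were tested, and Kcnab1 was the 1 that passed in each R6/2 comparison. Against wild type the other 8 lay between -0.10 (Kcnmb4) and 0.10 (Kcnq1ot1, a noncoding RNA from the imprinted Kcnq1 locus). They included Kcne4 (0.01), which damps Kv1 and KCNQ currents, and Kcnmb2 (0.04), which inactivates BK channels.

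**Figure D2:**
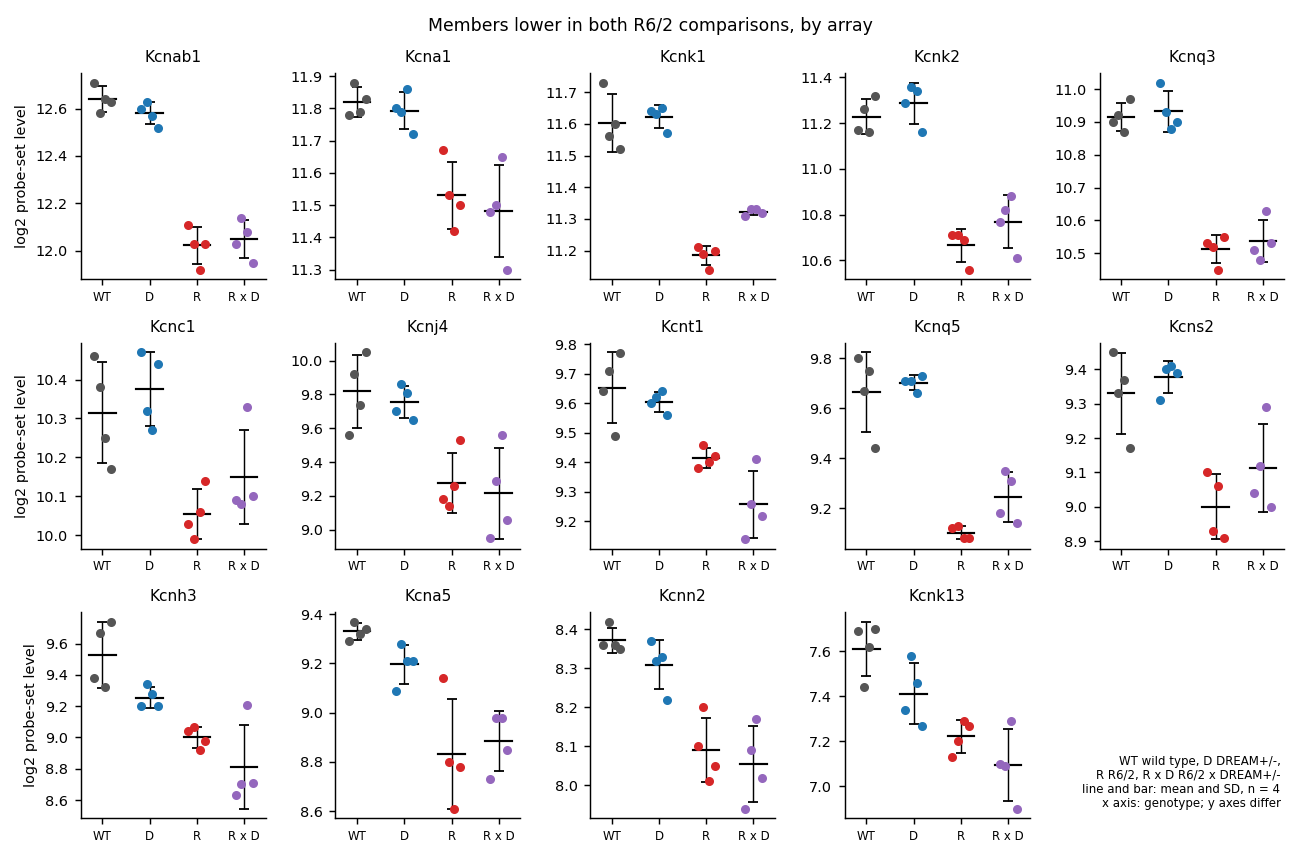
Log2 level (y axes, which differ) of the 14 members lower in both R6/2 comparisons, by genotype (x axis), with 1 point per array and the mean and SD of 4 arrays as a line and bar (WT is wild type, D is DREAM+/-, R is R6/2 and R x D is R6/2 x DREAM+/-). In Kcnab1, Kcnq3, Kcnq5, Kcnk1 and Kcnk2 all 8 transgene arrays lie below all 8 arrays without it; in Kcnc1, Kcnh3 and Kcnk13 replicate 3 of R6/2 x DREAM+/- lies with the DREAM+/- arrays.

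Under 29 other settings of the fit (28 for genes a stricter filter removed), 6 of the 23 calls against wild type held throughout (Kcnab1, Kcnk1, Kcnk2, Kcnq3, Kcna5 and Kcna4), and 8 of the 15 on the DREAM+/- background did (Kcnab1, Kcnk1, Kcnk2, Kcnq3, Kcnj4, Kcnt1, Kcnh3 and Kcnn2). No call changed sign. Averaging all probe sets of a gene in place of taking the brightest removed Kcna1, Kcnc1 and Kcnq5 from both sets of calls.

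Cell type markers moved with the same comparisons. Of 16 medium spiny neuron markers, 14 were lower in R6/2 against wild type (median -0.71) and 15 on the DREAM+/- background (median -0.64). Their summed linear level was 86928 to 94417 in wild type, 57158 to 62646 in R6/2, 81988 to 87583 in DREAM+/- and 52909 to 65896 in R6/2 x DREAM+/-. Of 10 tested interneuron markers 8 and 7 were lower, of 10 astrocyte markers 5 and 3 (and 1 was higher against wild type), and of 9 oligodendrocyte markers 4 and 4. Of 5 markers of neighbouring forebrain, 0 and 4 were lower. No microglial, endothelial or choroid plexus marker passed in either. The part of these cell types in the channel differences was not tested.

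Cortical projection neuron markers, whose RNA can enter with adjoining cortex, were also measured. Against wild type 7 of 11 were lower (median -0.48), and on the DREAM+/- background 1 was (median -0.08), and none of the 11 passed in the interaction. Their sum was 7910 to 8838 in wild type, 6121 to 6967 in R6/2, 8523 to 9507 in DREAM+/- and 7226 to 8898 in R6/2 x DREAM+/-. With the mean of these markers as a covariate in limma, 8 members stayed lower in R6/2 against wild type (Kcnab1, Kcna1, Kcnk1, Kcnk2, Kcnq3, Kcnq5, Kcna5 and Kcna4) and all genes called fell from 3307 to 1445. Because the sums of wild type and R6/2 did not overlap, this fit cannot fully separate the covariate from genotype. A call lost under it does not show that cortical RNA had a part in the difference. On the DREAM+/- background 14 of the 15 remained, all but Kcnc1.

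Of 16 partners of the Kv1 complex and its scaffolds, all tested, 4 were lower in R6/2 against wild type and 12 did not pass. Dlg4, the postsynaptic scaffold PSD-95 that clusters Kv1 and inward rectifier channels, differed by -0.32 (SE 0.0924, adjusted p = 0.0188). On the DREAM+/- background it differed by -0.45 (SE 0.0924, adjusted p = 0.00329) and was the 1 of 16 that passed. Dlg2 (-0.33), Lgi2 (-0.39) and Cntnap4 (-0.21) were the others against wild type. Of all genes, 11.9% were lower against wild type and 7.87% on the DREAM+/- background.

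Among 11 tested genes of channel localisation and turnover, Nedd4l, a ubiquitin ligase that removes KCNQ channels from the membrane, was lower in both, with differences of -0.65 (SE 0.0698, adjusted p = 5.17e-06) and -0.56 (SE 0.0698, adjusted p = 4.54e-05). Ank3, the ankyrin that anchors KCNQ channels at the axon initial segment, was lower in both (-0.18 and -0.21), and Sptbn4, a spectrin of the same site, was higher against wild type (0.23). Of 6 tested partners of BK, SK, ATP-sensitive and HCN channels, Abcc8 (-0.28) and Lingo1 (-0.32) were lower and Hcn3 (0.20) higher against wild type, and none passed on the DREAM+/- background. None of 9 pumps and cotransporters of the potassium gradient passed in either comparison. In either direction, 25.4% of all genes passed against wild type and 14.9% on the DREAM+/- background.

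DREAM+/- against wild type gave no call among the members. With limma 0 of 57 passed, beside 3.68% of all genes (1.6% higher and 2.08% lower). An unadjusted p below 0.05 was reached by 11 of the 57 members and by 2389 of 13011 genes. The median member difference was -0.03, beside -0.03 for all genes. In 4 members the groups did not overlap (Kcna5, Kcnj3, Kcnj8 and Kcnn1), beside 12.5% of all genes. Kcnj8, the ATP-sensitive pore of pericytes and smooth muscle, came closest: it read 6.66, 6.92, 6.83 and 6.69 in wild type and 7.28, 7.01, 6.97 and 6.98 in DREAM+/-, all 4 of the latter higher, with a difference of 0.28 (SE 0.0796, adjusted p = 0.0541). Its partner Abcc9, the sulphonylurea receptor SUR2, passed at 0.23 (SE 0.0616, adjusted p = 0.0491), and was the 1 of 8 endothelial and pericyte markers that did. Kcnma1 read 8.53, 8.67, 9.21 and 8.09 in wild type and 9.05, 9.25, 9.21 and 9.11 in DREAM+/-, with replicate 3 of wild type level with DREAM+/-, and its difference was 0.53 (SE 0.166, adjusted p = 0.0876).

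Without wild-type replicate 3, Kcnma1 passed, beside 4.80% of all genes, and without wild-type replicate 2, Kcnj8 did, beside 2.18%. Each time the array left out held the highest wild-type level of that gene (9.21 and 6.92), so these calls are no evidence of a difference. Kcnj8 also passed without R6/2 replicate 3, beside 3.28% of all genes. Without R6/2 x DREAM+/- replicate 3, Kcnj8 and Kcnn1 passed, beside 5.40%.

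With the transgene on both sides, R6/2 x DREAM+/- against R6/2, 5 of 57 members passed, 8.77% beside 14% of all genes. Of these, Kcna2, Kcnj3, Kcna4 and Kcnt2 were higher, 4 members beside 5.33% of all genes, and Kcna3 was lower, 1 member beside 8.65%. In 6 members the groups did not overlap, beside 15.8% of all genes. This comparison and R6/2 against wild type share the R6/2 arrays, and values of both are given side by side.

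Kcna2 read 10.20, 10.27, 10.36 and 10.26 in R6/2 and 10.40, 10.47, 10.63 and 10.38 in R6/2 x DREAM+/-, beside 10.49 to 10.63 in wild type and 10.61 to 10.65 in DREAM+/-. All 4 R6/2 x DREAM+/- arrays were above R6/2. The difference was 0.20 (SE 0.0566, adjusted p = 0.0296), beside -0.31 for R6/2 against wild type. Kcna4 read 7.99, 7.80, 7.74 and 7.73 in R6/2 and 8.22, 8.18, 8.12 and 7.90 in R6/2 x DREAM+/-, beside 8.03 to 8.48 in wild type and 8.21 to 8.29 in DREAM+/-. Its groups overlapped through replicate 1 of R6/2 and replicate 4 of R6/2 x DREAM+/-. The difference was 0.29 (SE 0.0863, adjusted p = 0.0344), beside -0.43 against wild type.

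Kcnt2 read 7.13, 7.28, 7.32 and 7.18 in R6/2 and 7.76, 7.40, 7.79 and 7.71 in R6/2 x DREAM+/-, beside 7.37 to 7.67 in wild type and 7.47 to 7.74 in DREAM+/-. The R6/2 arrays were the lowest of all 16. Kcnt2 differed by 0.44 (SE 0.0929, adjusted p = 0.00671), beside -0.29 against wild type. Kcnj3, the G-protein-gated subunit, read 7.99, 8.18, 8.32 and 8.18 in R6/2 and 8.46, 8.26, 8.65 and 8.67 in R6/2 x DREAM+/-, beside 7.89 to 8.29 in wild type and 8.33 to 8.47 in DREAM+/-. R6/2 lay at the wild-type level, and R6/2 x DREAM+/- above it except for replicate 2. Its difference was 0.34 (SE 0.0964, adjusted p = 0.0271).

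Kcna3, a Kv1 pore of lymphocytes and microglia as well as neurons, read 7.29, 7.40, 7.44 and 7.36 in R6/2 and 6.93, 6.84, 6.94 and 7.00 in R6/2 x DREAM+/-, beside 7.11 to 7.38 in wild type and 6.93 to 7.19 in DREAM+/-. All 4 R6/2 x DREAM+/- arrays were below R6/2 and below wild type. The difference was -0.45 (SE 0.0691, adjusted p = 7.44e-04), or 73.5% of the R6/2 level, and the same gene gave -0.16 in DREAM+/- against wild type, which did not pass. Of 7 microglial markers 1 was higher and none was lower in R6/2 x DREAM+/- against R6/2.

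These 5 calls moved with other measures. Cortical projection neuron markers were higher in R6/2 x DREAM+/- than in R6/2 in 7 of 11. With them as a covariate Kcna2 (0.11), Kcnj3 (0.07) and Kcnt2 (0.33) did not pass while Kcna4 (0.51) and Kcna3 (-0.53) did. Their sums did not overlap between these genotypes either, so the covariate cannot be fully separated from genotype here. The mean of 12 labelling control probe sets, for bacterial RNAs that are usually added before labelling, was 7.33 to 7.55 in R6/2 and 7.65 to 8.36 in R6/2 x DREAM+/-, and 7.51 to 8.01 in wild type and 8.07 to 8.20 in DREAM+/-. These control levels did not overlap between R6/2 and R6/2 x DREAM+/-. With that mean as a covariate none of the 5 passed (4 other members, Kcnv1, Kcnf1, Kcna6 and Kcnk3, did), and all genes called fell from 1819 to 536. The differences under it were 0.28 for Kcna2, 0.41 for Kcnj3, 0.04 for Kcna4, 0.41 for Kcnt2 and -0.31 for Kcna3, with larger standard errors than without it (for Kcna3, 0.0691 without it and 0.0970 with it). The same covariate called 27 of the 57 members in R6/2 against wild type, 21 of the 23 among them, beside 26.4% of all genes. On the DREAM+/- background it called 18, all 15 among them, beside 19.9% of all genes. Without both arrays that stand apart, 10 of the 57 members were called in R6/2 x DREAM+/- against R6/2, beside 17.6% of all genes. Of these 10, Kcna4, Kcnt2 and Kcna3 were among the 5. Without R6/2 replicate 2 or 4 the calls numbered 2, beside 9.33% and 8.20% of all genes. Without R6/2 x DREAM+/- replicate 3 they numbered 12, beside 20.8% of all genes.

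**Figure D3:**
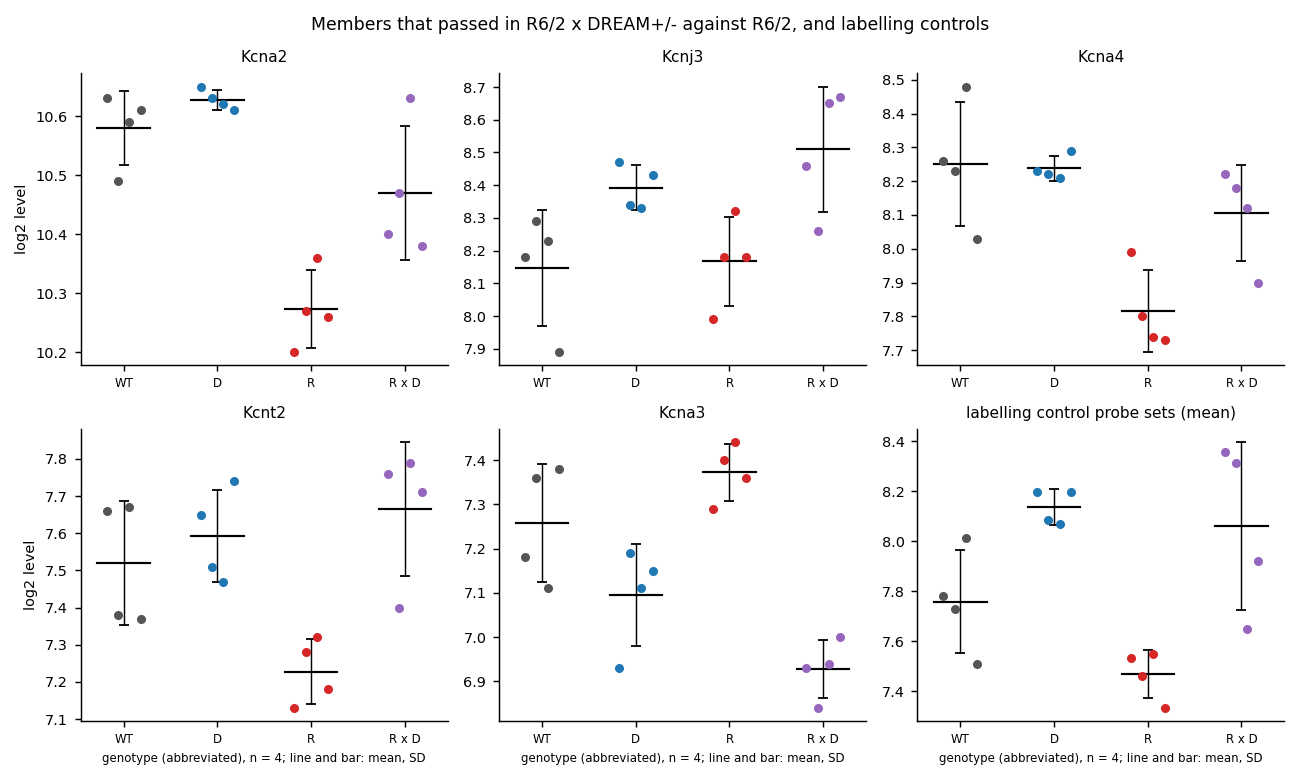
Log2 level (y axes, which differ) by genotype (x axis) of the 5 members that passed in R6/2 x DREAM+/- against R6/2 and, in the last panel, the mean of 12 labelling control probe sets; 1 point per array, with the mean and SD of 4 arrays (WT wild type, D DREAM+/-, R R6/2, R x D R6/2 x DREAM+/-). Kcna2, Kcna4, Kcnt2 and the controls have their lowest mean in R6/2, and Kcna3 has its lowest mean in R6/2 x DREAM+/-.

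Whether the R6/2 difference itself depended on DREAM dose was tested by the interaction term. With limma 0 of 57 members and 0 of 13011 genes passed, and 6 members and 898 genes had an unadjusted p below 0.05. Those members were Kcna3 (-0.28, 95% interval -0.49 to -0.08), Kcna4 (0.30, 0.05 to 0.56), Kcnt2 (0.36, 0.09 to 0.64), Kcnf1 (0.35, 0.06 to 0.63), Kcnk12 (0.21, 0.03 to 0.39) and Kcnv1 (0.24, 0.02 to 0.47). For the 8 members lower in R6/2 against wild type and not called on the DREAM+/- background, the difference between backgrounds was therefore not shown.

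Partner genes in R6/2 x DREAM+/- against R6/2 included Lgi2 (0.37, SE 0.091, adjusted p = 0.0143) and Cntnap4 (0.24, SE 0.0615, adjusted p = 0.0158), 2 of 16 of the Kv1 complex. Nedd4l (0.22) was higher and Sptbn4 (-0.26) and the Kv2 partner Amigo1 (-0.26) were lower, of 11 genes of localisation and turnover. Abcc9 (0.33) was the 1 of 6 that passed among BK, SK, ATP-sensitive and HCN partners, and the chloride importer Slc12a2 (0.24) the 1 of 9 of the potassium gradient. Of all genes, 14% passed in this comparison, 5.33% higher and 8.65% lower. Whether the partner lists depart from that share was not tested.

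Some probe sets that did not stand for their gene read differently from the one that did. In the fit over all 34945 single-symbol probe sets, 29 of the members' 142 were lower and 2 higher in R6/2 against wild type, beside 6.42% and 6.74% of all. With DREAM+/- on both sides 22 were lower and 0 higher, beside 4.01% and 2.91%, and in DREAM+/- against wild type none passed, beside 1.11% lower and 1.15% higher. By contrast, 10 of the members' 142 were higher in R6/2 x DREAM+/- against R6/2 and 1 was lower, beside 3.53% and 4.22% of all. Of the 10, 7 were second probe sets, of Kcna1, Kcna2, Kcnh1, Kcnj3, Kcnma1, Kcnq1ot1 and Kcnq5, with differences from 0.37 to 1.75. The Kcna2 probe set read 7.68, 7.52, 9.29 and 7.01 in wild type, 8.99, 8.91, 9.07 and 9.27 in DREAM+/-, 7.89, 7.90, 7.99 and 7.45 in R6/2 and 9.41, 9.46, 9.36 and 9.19 in R6/2 x DREAM+/-. Wild-type replicate 3 thus lay above all DREAM+/- arrays, while the range of the other wild-type arrays overlapped that of R6/2.

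For the Kcnq5 probe set, wild type read 6.79, 6.55, 9.00 and 5.81 and R6/2 7.37, 6.31, 7.27 and 6.43. Its levels were 8.32, 8.22, 8.37 and 8.40 in DREAM+/- and 8.83, 8.74, 7.93 and 8.15 in R6/2 x DREAM+/-. For the Kcnma1 probe set, wild type read 6.74, 6.79, 9.15 and 6.48 and R6/2 6.63, 6.47, 7.02 and 6.42, beside 7.86, 7.76, 8.08 and 8.22 in DREAM+/- and 8.66, 8.98, 7.82 and 8.06 in R6/2 x DREAM+/-. In both, wild-type replicate 3 again lay above all DREAM+/- arrays and the other wild-type arrays overlapped R6/2.

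With all 16 arrays none of the 7 passed in DREAM+/- against wild type, where the Kcna2 probe set gave 1.185. Without wild-type replicate 3, all but the Kcnj3 probe set passed, and Kcna2 gave 1.66. That array was chosen after these probe sets were seen to read high in it. Leaving it out narrows the spread by that choice, so these calls are no evidence of a difference. The labelling control mean was highest in that array among wild type (8.01), and with it as a covariate none of the 7 passed in either DREAM comparison. The brightest probe sets of Kcna2, Kcnq5 and Kcnma1 differed by 0.20, 0.14 and 0.31 in R6/2 x DREAM+/- against R6/2. Which transcript ends these probe sets read was not analysed here.

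**Figure D4:**
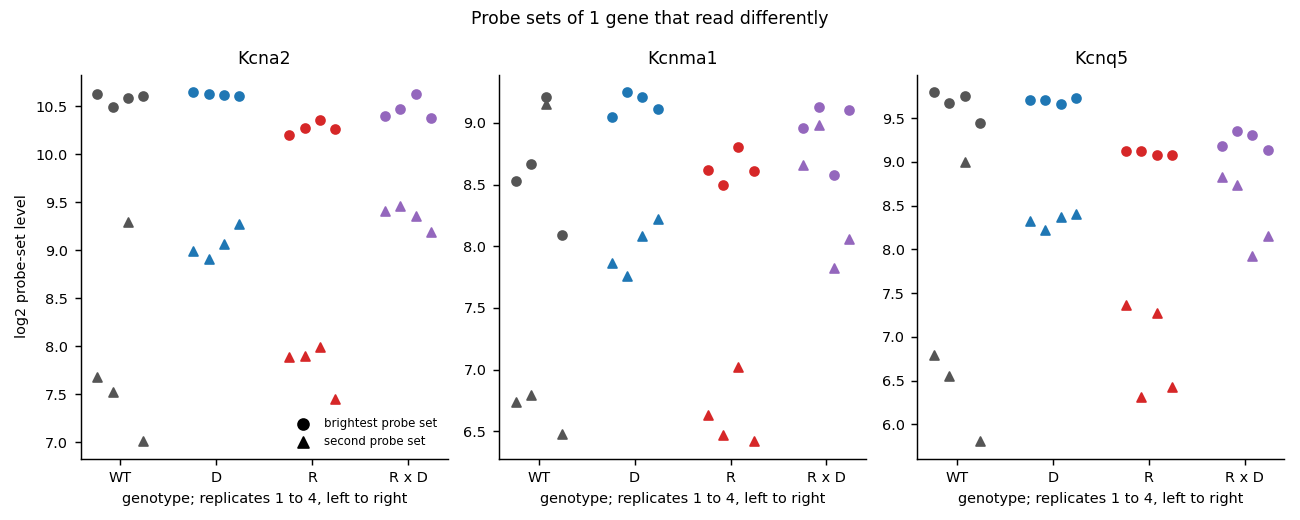
Log2 level (y axis) of the brightest probe set (circles) and of a second probe set (triangles) of Kcna2, Kcnma1 and Kcnq5, by genotype (x axis), with replicates 1 to 4 from left to right (WT wild type, D DREAM+/-, R R6/2, R x D R6/2 x DREAM+/-). Triangles of wild-type replicate 3 (9.29, 9.15 and 9.00) lie above those of all DREAM+/- arrays, while the circles of Kcnq5 are lower in both transgene groups.

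Kcnj13 had the largest spread among the tested members. It encodes Kir7.1, a rectifier of choroid plexus epithelium, and read 9.06, 8.69, 9.43 and 8.70 in wild type, 9.39, 7.95, 10.19 and 9.15 in DREAM+/-, 9.56, 9.30, 9.16 and 6.85 in R6/2 and 10.13, 8.67, 9.02 and 9.66 in R6/2 x DREAM+/-. It was lowest in R6/2 replicate 4 and highest in DREAM+/- replicate 3 and R6/2 x DREAM+/- replicate 1, and passed in no comparison. The summed level of 7 choroid plexus markers was 10336 in that R6/2 array, 24873 in that DREAM+/- array and 27040 in that R6/2 x DREAM+/- array, beside 18914 to 21761 in wild type.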

How the data were processed

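The authors deposited log2 levels of 45101 probe sets on 16 arrays, made by RMA with affy, per the submitters' processing notes, which name no version. RMA corrects background, equalises the arrays' distributions and summarises probes, so a shift common to most genes cannot be seen, and changes of dim probe sets are compressed. Platform annotation gave exactly 1 symbol to 34945 probe sets and several to 932, and 64 are controls. The members, lists and tests were chosen with earlier results of these data known.

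Tests used R 4.3.3 with limma 3.58.1, fitting 1 mean per genotype over all 16 arrays with lmFit and eBayes, on the brightest probe set per gene above the 40th percentile of means. P-values were adjusted by Benjamini-Hochberg over 13011 genes, with 0.05 as the threshold. The fit was tested on simulated data with 50 changed genes of each size. Changes of 0.2 on the log2 scale were recovered in 4% to 20%, by comparison, and changes of 0.5 in 68% to 92%. At 0.3 the share was 58% to 64%, but 22% in the interaction. Small differences that did not pass are therefore not shown to be absent. The number of arrays, 4 per genotype, limits the precision. Named are Kcnip3, each member that passed, members fixed by symbol for their known striatal role, the 5 brightest members, and partner genes by unadjusted p; Kcnab2, Kcnab3, Kcnj8, Kcnj13 and others with small differences were chosen after their values were seen. Arrays are given one by one for the 14 members lower in both R6/2 comparisons and the 5 called in R6/2 x DREAM+/- against R6/2. Alternatives were 2 filters, 2 normalizations, the mean of probe sets, trend and robust, array weights, a replicate block, cortical markers as a covariate, and arrays left out. Covariates from Eif2s3y, the actin 3′ to 5′ difference and labelling controls, and the settings tried on further probe sets, were chosen after seeing the data.

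Not every same-numbered pair deviated together: of 24 correlations of deviations from the group means (-0.41 to 0.29, median 0.07), 11 were above 0.1, and other pairs had a median of -0.01, so the numbers were not taken as pairs. All 75 members matched RefSeq (GRCm38.p6) by Entrez ID, and 56 had a promoter sequence there. Python 3.11.15 and matplotlib 3.10.9 drew the figures.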

Additional observations from a re-analysis of the deposited data

Results flagged for a closer look

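Among 76 groups of 4 arrays (19 members given array by array, 4 genotypes each), 4 held an array far from the other 3 by Dixon's criterion, and chance alone marks about 1 group in 20. Kcnk2 read 10.56 in R6/2 replicate 4, below the 10.69 to 10.71 of the other R6/2 arrays. Kcnc1 read 10.33 in R6/2 x DREAM+/- replicate 3, above 10.08 to 10.10 in the rest of its group. In the same array Kcnh3 read 9.21, above 8.63 to 8.71. Kcnn2 read 8.42 in wild-type replicate 2, above 8.35 to 8.36. The R6/2 x DREAM+/- array marked in Kcnc1 and Kcnh3 is the one that stood apart on the third principal component. Without it Kcnh3 and Kcnc1 remained lower on the DREAM+/- background.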

How the results depend on the processing

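No called member changed sign under any alternative. The called members numbered 23 in R6/2 against wild type and 15 in R6/2 x DREAM+/- against DREAM+/-. With cortical markers as a covariate the first count was 8 members and 1445 of all genes. Leaving out 1 array gave 19 to 26 members and 2692 to 3718 genes, and on the DREAM+/- background 10 (without R6/2 x DREAM+/- replicate 4) to 18 members and 1304 to 2306 genes.

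For DREAM+/- against wild type, the mean of probe sets called 2 members (Kcna2 and Kcnj8), beside 4.07% of all genes. Array weights called 2 (Kcnma1 and Kcnn1) and 899 genes (6.91%), and the actin covariate 1 (Kcnma1), beside 4.00%. Leaving out 1 array called 0 to 2 members and 280 to 703 genes.

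For R6/2 x DREAM+/- against R6/2, in place of 5 members, the mean of probe sets called 9 and array weights 9, beside 13.1% and 18.6% of all genes. Leaving out both arrays that stood apart called 10, beside 17.6% of all genes. The actin covariate called 13, with 2811 of all genes (21.6%). Genes called numbered 936 with the cortical and 536 with the labelling control covariate, in place of 1819. Leaving out 1 array gave 2 (without R6/2 replicate 2 or 4) to 12 (without R6/2 x DREAM+/- replicate 3) members and 1067 to 2708 genes. The interaction called 3 genes with the stricter filter, 1 with quantile normalization, 3 with arrays shifted to a common median and 0 to 2 with 1 array left out, none of them members. The cause of these shifts was not tested.

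With the replicate number as a block, 22 members and 3339 genes passed in R6/2 against wild type. The block gave 14 members and 1946 genes when both groups were DREAM+/-, and 5 members and 1709 genes when both were R6/2. For DREAM+/- against wild type it gave 0 members and 434 genes, and for the interaction 0 and 0. Of 16 arrays, 8 correlated best with an array of their own number, although most arrays of the other genotypes bore a different number. Whether the replicate numbers mark a batch was not tested. Dim signal kept 18 members under the filter, and they were not tested.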
